A study of Homo sapiens with 18 samples.

Results

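The response to thapsigargin was compared between gemcitabine-resistant and parental pancreatic cancer cells. The parental cells, Par, are the human pancreatic carcinoma line L3.6pl, and GemR is its gemcitabine-resistant derivative, kept in 64 nM gemcitabine, a deoxycytidine analogue used as chemotherapy. Of the 18 mRNA libraries of the series, 12 enter the comparison, 3 in each of 4 groups: GemR with thapsigargin, GemR with vehicle, Par with thapsigargin and Par with vehicle. All 4 groups had been transfected for 48 h with a control siRNA (siCont), and the last 3 h were in 500 nM thapsigargin or in DMSO (vehicle). For each gene the quantity studied was the difference of 2 log2 fold changes: thapsigargin against vehicle in GemR, minus thapsigargin against vehicle in Par. A positive value means that the response was higher in GemR, which includes a smaller fall. GemR is a single derivative, so resistance, exposure to gemcitabine and any other difference of that line cannot be told apart.

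Thapsigargin inhibits SERCA, the pump that keeps the endoplasmic reticulum (ER) filled with calcium. Proteins misfold in the ER, and the kinase PERK, the transcription factor ATF6 and the RNase IRE1 start the unfolded protein response, in which PERK halts most translation and favours that of ATF4, a factor for genes of amino acid supply and cell death. In parallel, the ER calcium sensor STIM1 opens channels of the plasma membrane (store-operated entry), and calcium activates calcineurin, a phosphatase that sends NFAT factors to the nucleus.

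Reads per library ranged from 8922439 to 15542458 over the 12 libraries. STIM1, carried at high mRNA level in GemR, had 6079, 6307 and 6174 normalized counts in GemR with thapsigargin and 4976, 6294 and 6401 in GemR with vehicle, against 423, 421 and 448 in Par with thapsigargin and 444, 447 and 481 in Par with vehicle. The difference of its responses was 0.17 ± 0.14 (limma, adjusted p = 0.488). For its neighbour RRM1, a subunit of ribonucleotide reductase, the difference was -0.10 ± 0.08 (adjusted p = 0.515). The 8 carcinoma markers looked at were all above the minimum level, led by the keratins KRT17 and KRT7, while the fibroblast genes DCN and FAP and the lymphocyte genes CD3D and MS4A1 were at 0. Other immune and endothelial markers were read in all 12 libraries: CD68 (124 to 173 counts), PECAM1 (87.3 to 158) and CDH5 (79.1 to 176). The summed immune and endothelial markers lay at 410 to 431 in GemR with thapsigargin and 349 to 388 with vehicle. In Par they lay at 359 to 425 with thapsigargin and 400 to 409 with vehicle. The summed fibroblast markers, nearly all from collagens COL1A1 and COL3A1, lay at 1588 to 1808 in GemR with thapsigargin, 1215 to 1456 in GemR with vehicle, 10048 to 10564 in Par with thapsigargin and 9352 to 9696 in Par with vehicle. The differences of the 4 tested members lay between -0.18 and 0.40 and were not called (limma, lowest adjusted p = 0.366). Their part in the results was not tested. In 1 library, GemR vehicle replicate 1, the deviation from its group followed transcript length (slope -0.149 per doubling of length, Spearman's rho = -0.585 across 12419 genes), and in the other 11 the slope lay between -0.0212 and 0.0968. In the other GemR vehicle libraries rho was 0.399 in replicate 2 and 0.534 in replicate 3. Deviations were taken from the mean of the group, so these had to balance replicate 1, and their opposite sense is no separate observation. Log2 values stand with the standard error of the limma fit after ±, and mean levels with the standard deviation (n = 3). Replicates are numbered in the labels with nothing on separate cultures, so p-values measure the spread between these libraries, which may be technical. Fewer cells of a kind and less RNA per cell cannot be told apart in such bulk samples.

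The 2 lines answered the same drug with many of the same genes but with different strength. Of 13096 genes tested, 4402 changed in GemR (33.6%; 2338 rose, 17.9%, and 2064 fell, 15.8%) and 5253 changed in Par (40.1%; 2679 rose, 20.5%, and 2574 fell, 19.7%). With quantile normalization 2020 rose and 2745 fell in GemR, and 2360 rose and 3247 fell in Par. With a 2-fold minimum 647 rose and 124 fell in GemR, and 628 rose and 205 fell in Par. Both responses were called for 2748 genes, of which 1461 rose in both lines, 1101 fell in both and 186 moved in opposite directions. The difference itself was called for 1938 genes, 14.8% of those tested. The response was higher in GemR for 935 genes (7.14%) and lower for 1003 (7.66%), and 438 of the differences were at least 2-fold, 259 higher and 179 lower. Without GemR vehicle replicate 1 the count was 2943 (1454 higher and 1489 lower), and 1841 of the 1938 were among them. With a term for transcript length in each library it was 3846 (1917 higher and 1929 lower). That term was the slope on length of each library's deviation from its own group, taken from these same data. It leaves every log2 difference unchanged and alters only the estimated spread, so its larger counts correct no length effect in the differences. Counts of list members given below for these fits are to be read against those larger totals. The median difference over all genes tested was 0.01 on the log2 scale.

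**Figure D1:**
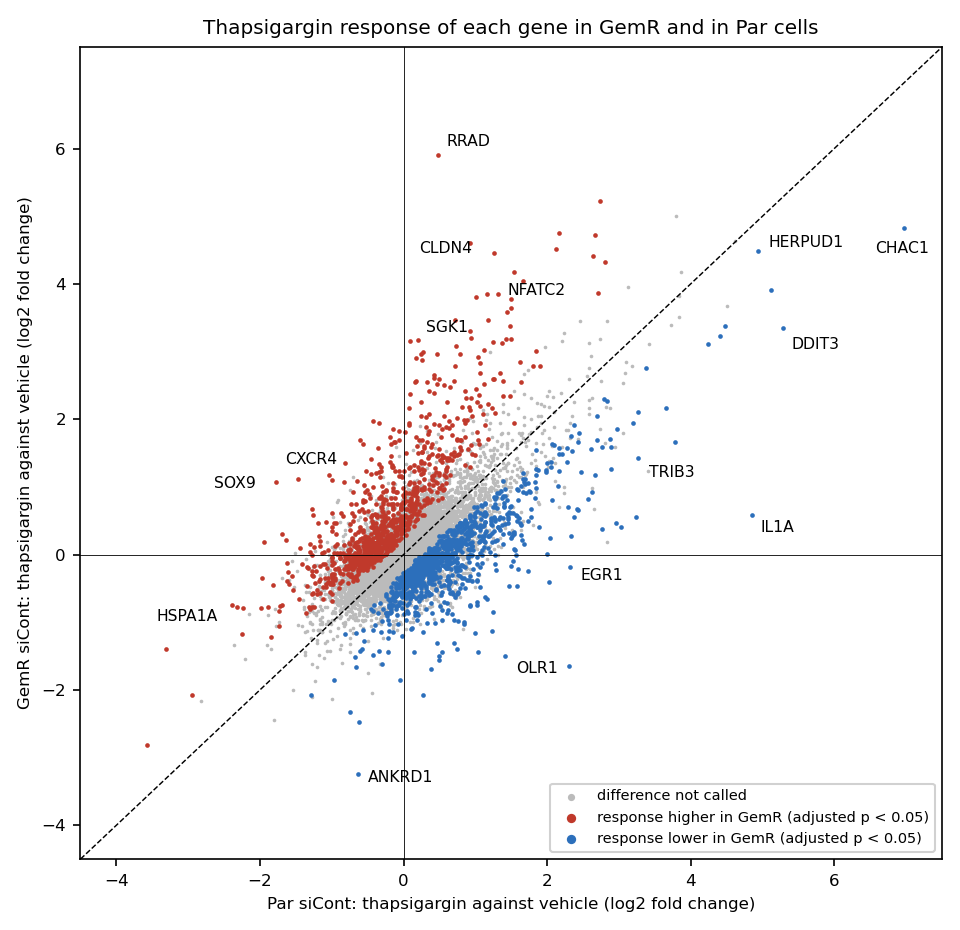
Log2 fold change with thapsigargin against vehicle in GemR (vertical axis) and in Par (horizontal axis) for the 13096 genes tested; red and blue points are the 935 genes with a higher and the 1003 with a lower response in GemR, and the dashed line marks equal responses. RRAD stands highest above the line, and CHAC1, DDIT3, TRIB3 and IL1A lie far below it on the right.

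The PERK-ATF4 branch was induced in both lines and less in GemR. All 24 genes of this list passed the minimum level. In Par all 24 rose, with a median response of 2.86, and in GemR 22 rose, with a median of 1.49. The response was lower in GemR for 18 of the 24 and higher for none, against 7.66% lower among all genes tested, and the median difference was -0.95. The 18 came from several steps of the branch: the sensor kinase EIF2AK3 (PERK, -0.59 ± 0.10), ATF4 itself (-0.76 ± 0.10), the factors ATF3 (-1.18 ± 0.23) and CEBPG, and the phosphatase subunit PPP1R15A (-1.15 ± 0.15), which ends the block of translation.

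CHAC1, which degrades glutathione, had 1802, 1835 and 1677 normalized counts in GemR with thapsigargin and 64.6, 65.7 and 55.9 in GemR with vehicle. In Par it had 3046, 3353 and 3089 with thapsigargin and 21.3, 28.2 and 23.4 with vehicle. The GemR libraries were thus lower with the drug and higher without it, and in both arms the lines did not overlap. It rose 28.2-fold in GemR and 126-fold in Par, a difference of -2.16 ± 0.16 (adjusted p = 1.57e-08). DDIT3, which encodes the death-promoting factor CHOP, had 1840, 2014 and 1692 counts in GemR with thapsigargin against 222, 175 and 150 with vehicle, and 6508, 6819 and 6868 in Par with thapsigargin against 169, 159 and 188 with vehicle. Here the vehicle libraries of the lines overlapped, and with thapsigargin all 3 of GemR lay far below all 3 of Par. The difference was -1.94 ± 0.16 (adjusted p = 1.06e-07). TRIB3, a pseudokinase that binds AKT and is a CHOP and ATF4 target, had 2066, 2208 and 1903 counts in GemR with thapsigargin and 756, 804 and 741 with vehicle, against 10171, 10798 and 10194 in Par with thapsigargin and 1042, 1030 and 1169 with vehicle (-1.84 ± 0.12, adjusted p = 5.06e-09). In vehicle GemR was lower too, and the gap was larger with the drug.

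INHBE, a secreted inhibin subunit, stood at 26.3, 18.5 and 21.4 counts in GemR with thapsigargin and 15.6, 22.8 and 8.52 with vehicle, and at 339, 394 and 364 in Par with thapsigargin and 25.4, 40.1 and 52.7 with vehicle. Its libraries overlapped in GemR and lay wide apart in Par (-2.68 ± 0.46, adjusted p = 0.000393). CEBPB, a partner of ATF4 on DNA, rose in both lines and less in GemR (-1.62 ± 0.13), as did the secreted factors STC2 (-1.48 ± 0.07) and GDF15 (-1.13 ± 0.17) and the mTORC1 inhibitor SESN2 (-1.21 ± 0.19). The members not called were VEGFA (-0.12 ± 0.09), NUPR1, CCPG1, VLDLR, KLHL24 and FGF21 (-1.34 ± 0.47, adjusted p = 0.0651). FGF21 was low in GemR, at a mean of 9.32 ± 3.93 with thapsigargin and 2.27 ± 0.546 with vehicle, against 107 ± 9.98 in Par with thapsigargin and 13.2 ± 2.07 with vehicle.

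ATF4 binds DNA with C/EBP proteins at the C/EBP-ATF response element, for which TGATGNAAN was searched on both strands. In windows of 250 bases before to 50 after each RefSeq start (GRCh38.p14), found for 9784 of the 13096 genes, it occurred in 4.15% of 1158 promoters of genes with a lower response in GemR, in 1.34% of 1042 of genes with a higher response, and in 1.92% of all 14342. It occurred in 16.7% of 30 promoters of the PERK-ATF4 list and in 23.1% of 26 of the amino acid list. A match is a run of letters and was not shown to be bound. The stretches upstream of CHAC1 (chr15:40953236-40953294, plus strand) and of HERPUD1 (chr16:56931940-56931998, plus strand) are shown as examples of a list member with a large and another gene with a small difference, with the element, here as its reverse complement, in capitals.
CHAC1: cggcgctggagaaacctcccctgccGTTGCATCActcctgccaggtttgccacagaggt
HERPUD1: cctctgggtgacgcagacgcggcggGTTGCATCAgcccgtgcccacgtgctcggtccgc

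Genes of amino acid supply, a set of ATF4 targets, followed the same pattern with smaller values. Of 21 tested, 14 responded less in GemR and none more, against 7.66% lower over all genes, with a median difference of -0.36. Leaving out 1 of GemR vehicle replicate 2, Par thapsigargin replicates 1 or 3, or Par vehicle replicates 1 or 2 brought the count to 9. SLC7A11, the cystine importer, had 5092, 5187 and 5628 counts in GemR with thapsigargin and 3657, 4823 and 5282 with vehicle, which overlapped. In Par the counts were 14194, 13195 and 13732 with thapsigargin and 4267, 4293 and 4538 with vehicle, wide apart (-1.43 ± 0.16, adjusted p = 4.63e-06). The neutral amino acid carrier SLC38A2 rose in both lines, 3.6-fold in GemR and 7.82-fold in Par (-1.12 ± 0.13). Its level in GemR was above Par with vehicle (0.74 ± 0.09) and below Par with thapsigargin (-0.38 ± 0.09). The cationic carrier SLC7A1 (-0.79 ± 0.19) and the serine synthesis enzyme PSPH (-0.63 ± 0.13) were also lower. Asparagine synthetase ASNS, a classical ATF4 target, was not called (-0.20 ± 0.09, adjusted p = 0.157). Aminoacyl-tRNA synthetases, which load amino acids onto tRNAs, had 11 of 20 lower and none higher (median -0.34), led by CARS (-0.68 ± 0.09), GARS (-0.66 ± 0.08), TARS (-0.55 ± 0.09), SARS (-0.52 ± 0.09) and AARS (-0.43 ± 0.08). GARS had 8144, 8848 and 8449 counts in GemR with thapsigargin and 6300, 6124 and 5815 with vehicle, against 11932, 12303 and 12211 in Par with thapsigargin and 5422, 5629 and 5495 with vehicle. The groups of each line did not overlap, and the step was smaller in GemR.

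**Figure D2:**
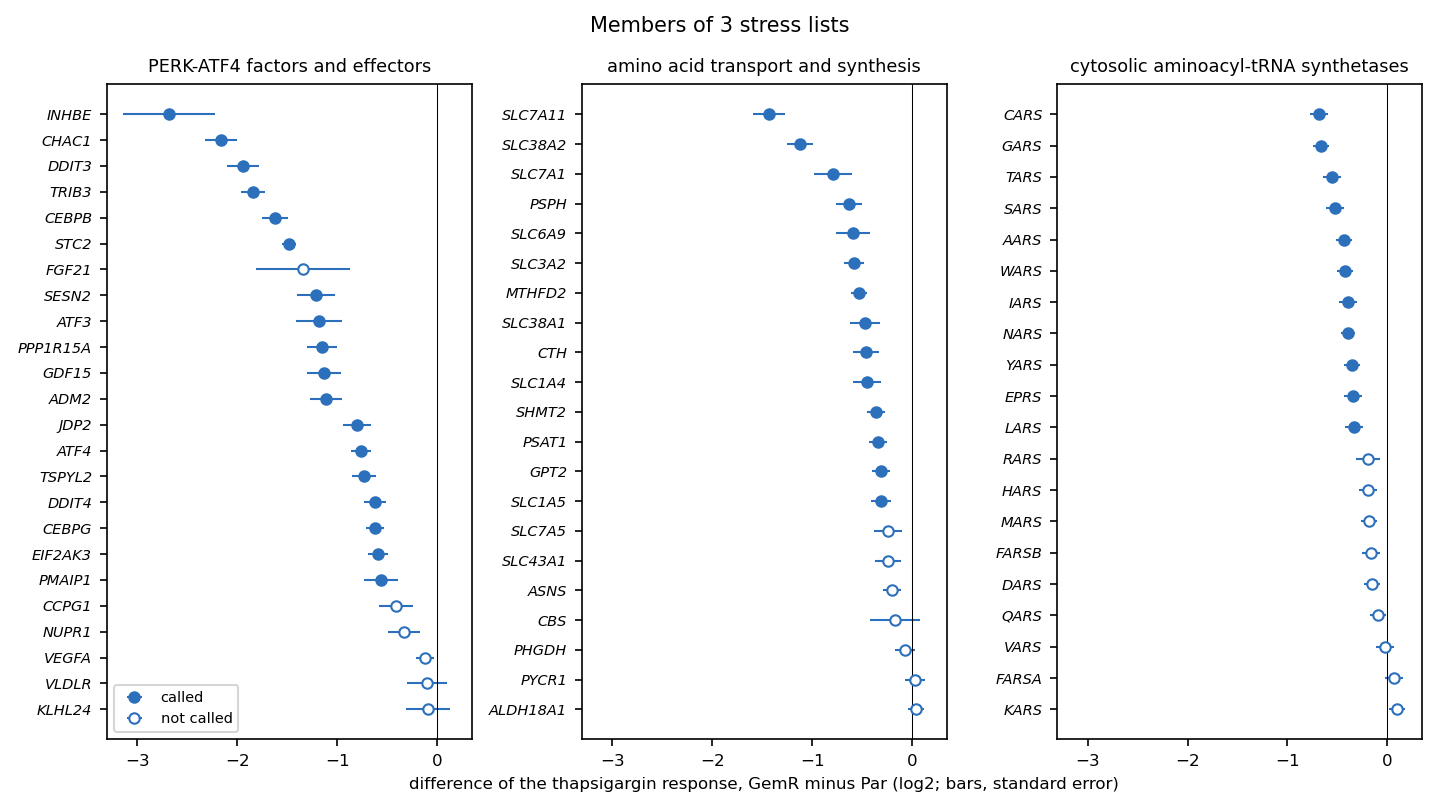
Difference of the thapsigargin response, GemR minus Par, for every tested member of 3 stress lists (log2, bars are standard errors); filled points were called. Nearly all points lie left of 0, 18 of 24, 14 of 21 and 11 of 20 members were called lower, and the largest differences are those of INHBE, CHAC1, DDIT3 and TRIB3.

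ER chaperones and the degradation machinery, the genes of ATF6 and of the IRE1 product XBP1, were closer between the lines. Of 24 chaperones and disulfide isomerases, 22 rose in each line, and the response was lower in GemR for 7 and higher for none (median difference -0.25). Of 21 genes of ER-associated degradation and of the stress sensors 6 were lower and 1 higher (median -0.22). Both lists are to be read against 7.66% lower and 7.14% higher over all genes. With the length term the lower counts of these lists were 15 and 10, beside 1929 lower of all 13096 genes. HSPA5, the main ER chaperone BiP, had 64230, 63110 and 61009 counts in GemR with thapsigargin and 13589, 12494 and 12112 with vehicle. In Par it had 111138, 106362 and 103042 with thapsigargin and 15483, 15815 and 14945 with vehicle. It rose 4.94-fold in GemR and 6.93-fold in Par, and no groups overlapped (-0.49 ± 0.08, adjusted p = 0.000434). With quantile normalization the difference changed sign and was not called (0.13, adjusted p = 0.386). HERPUD1, an ER membrane protein of the degradation complex, reached 17192, 16901 and 15503 counts in GemR with thapsigargin, over 792, 731 and 679 with vehicle, and 29804, 28964 and 28741 in Par with thapsigargin, over 976, 940 and 937 with vehicle (-0.44 ± 0.09, adjusted p = 0.00162). No groups overlapped, and the difference was smaller than those of DDIT3 or CHAC1. XBP1 rose in both lines and its difference was not called (0.19 ± 0.11, adjusted p = 0.275). The ER stress response element, CCAAT, 9 bases of any kind and CCACG, occurred in 32.1% of 28 promoters of the chaperone list and in 0.126% of all. It is in capitals upstream of HSPA5 (chr9:125241366-125241434, minus strand), shown as the best known case.
HSPA5: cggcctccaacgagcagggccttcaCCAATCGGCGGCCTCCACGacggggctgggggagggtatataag

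The calcineurin-NFAT list held more higher than lower responses in GemR. Of 18 tested calcineurin-NFAT genes 8 were higher in GemR, 2 were lower and 8 were not called, and the median difference was 0.58. Over all genes tested 7.14% were higher and 7.66% lower. With the length term 8 members were higher and 5 lower, beside 1917 and 1929 of all 13096 genes. RCAN1, a feedback inhibitor of calcineurin and a standard readout of NFAT, had 2113, 1932 and 2099 counts in GemR with thapsigargin and 167, 166 and 158 with vehicle. In Par it had 534, 385 and 425 with thapsigargin and 172, 169 and 131 with vehicle. The vehicle libraries of the lines overlapped, and with thapsigargin every GemR library exceeded every Par library. RCAN1 rose 12.4-fold in GemR and 2.83-fold in Par (2.13 ± 0.17, adjusted p = 6.01e-08). NFATC2, an NFAT factor, had 2158, 2134 and 2337 counts in GemR with thapsigargin and 100, 116 and 153 with vehicle, against 682, 597 and 544 in Par with thapsigargin and 186, 270 and 178 with vehicle (2.64 ± 0.27, adjusted p = 1.23e-06). GemR was lower in vehicle and higher with the drug, with no overlap in either arm. NFATC1, which is induced by NFAT itself, rose in GemR and was not called in Par (2.16 ± 0.17 and 0.08 ± 0.17, difference 2.08 ± 0.24). The orphan nuclear receptors NR4A2 (2.49 ± 0.25) and NR4A1 (1.89 ± 0.20) rose in both lines, more in GemR, while the difference of NR4A3, which rose in both, was not called (0.32 ± 0.31, adjusted p = 0.564). The cyclooxygenase PTGS2 (1.15 ± 0.18), the chemokine CXCL8 (0.92 ± 0.28) and RCAN3, a relative of RCAN1, completed the higher members, and EGR2 and the cytokine LIF (-0.61 ± 0.11) were the lower ones. The stretch upstream of a RefSeq start of RCAN1 (chr21:34526907-34527028, minus strand), shown for the leading NFAT readout, holds a cyclic AMP response element (searched as TGACGT) and an AP-1 site (TGANTCA), in capitals. The cyclic AMP element occurred in 7.58% of promoters of genes with a higher response, in 13.8% of those with a lower one and in 10.5% of all. The AP-1 site occurred in 5.28%, 6.04% and 5.22% in the same order. The NFAT core GGAAA, which also lies in this stretch but is not in capitals, occurred in 53% of promoters of genes with a higher response, in 63.7% of those with a lower one and in 58.6% of all. Of 23 promoters of 11 genes of the calcineurin-NFAT list, 73.9% held the NFAT core, 21.7% the cyclic AMP element and 17.4% the AP-1 site.
RCAN1: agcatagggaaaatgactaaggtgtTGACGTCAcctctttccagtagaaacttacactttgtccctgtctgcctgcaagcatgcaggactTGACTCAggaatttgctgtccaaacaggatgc

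Genes that handle calcium itself were called about as often as all genes. Of 25 channels, store sensors, pumps and calmodulins, 3 had a higher response in GemR and none a lower one, beside 14.8% called over all genes. With the length term 5 of the 25 were higher and 5 lower, beside 1917 and 1929 of all 13096 genes. The plasma membrane pump ATP2B1 rose in both lines, more in GemR (0.66 ± 0.11, adjusted p = 0.000284). The channel gene ORAI2 rose in GemR (0.37 ± 0.13) and fell in Par (-0.39 ± 0.13). CALM3 fell in both and less in GemR (0.34 ± 0.09, adjusted p = 0.0158), and without Par thapsigargin replicate 1 it was not called (adjusted p = 0.0552). ATP2A2, which encodes the SERCA pump that thapsigargin blocks, rose in both lines with no called difference (-0.20 ± 0.16, adjusted p = 0.477). The store sensor STIM2 (-0.31 ± 0.13), the channel gene ORAI1 (0.23 ± 0.14) and the store release channels ITPR1, ITPR2 and ITPR3 were not called either.

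Immediate early genes, which respond within minutes to calcium and to ERK signalling, went both ways: 6 of 25 responded more in GemR, 4 less and 15 were not called, with a median of -0.05. The shares over all genes were 7.14% higher and 7.66% lower. FOSB had 1990, 2147 and 2283 counts in GemR with thapsigargin and 188, 187 and 205 with vehicle, against 474, 467 and 435 in Par with thapsigargin and 138, 303 and 196 with vehicle (2.28 ± 0.29, adjusted p = 1.96e-05). The vehicle libraries of the lines overlapped, and the GemR libraries with the drug stood above all others. FOS was low in GemR with vehicle (96.9, 111 and 132, against 339, 286 and 345 in Par with vehicle) and higher than Par with thapsigargin (648, 678 and 744 in GemR and 413, 446 and 444 in Par), a difference of 2.18 ± 0.20. KLF4 (1.69 ± 0.16), BTG2 (1.60 ± 0.17), ZFP36 (1.42 ± 0.16) and JUND (0.97 ± 0.17) completed the higher members, while JUN (-0.09 ± 0.13) and JUNB (-0.05 ± 0.12) were not called.

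EGR1, a zinc finger factor induced through ERK and serum response factor, went the other way. It had 901, 1000 and 1095 counts in GemR with thapsigargin and 1016, 1199 and 1191 with vehicle, which overlapped. In Par it had 3811, 4136 and 3978 with thapsigargin and 740, 815 and 837 with vehicle, with a rise of 4.99-fold. The difference was -2.50 ± 0.12 (adjusted p = 8.4e-11). EGR2, its relative, also rose in Par and was not called in GemR, at lower counts (-2.43 ± 0.30), and IER2 (-0.79 ± 0.11), KLF6 (-0.65 ± 0.16) and KLF10 (-0.82 ± 0.11) were lower too. KLF10 fell in both lines, more in GemR. Of 20 feedback genes of the ERK pathway 5 were higher and 5 lower, against 7.14% and 7.66% over all genes. The lower ones included the nuclear phosphatase DUSP5 (-1.18 ± 0.14), the EGF receptor inhibitor ERRFI1 (-1.17 ± 0.15) and the ETS factor ETV5 (-0.91 ± 0.09). The higher count went to 3 without any of GemR thapsigargin replicate 1, GemR vehicle replicate 3, any Par thapsigargin library or Par vehicle replicate 2. ERRFI1 had 6123, 6414 and 6886 counts in GemR with thapsigargin and 1832, 1991 and 2121 with vehicle, against 20689, 19901 and 19751 in Par with thapsigargin and 2361, 3404 and 2538 with vehicle. The groups of each line lay apart, and the drug libraries of Par were the highest. In the list of EGF receptor ligands and receptors 5 of 11 were lower and none higher (median -0.39). The 5 were all ligands: EPGN (-2.05 ± 0.48), HBEGF (-0.77 ± 0.16), AREG (-0.77 ± 0.23), NRG1 (-0.63 ± 0.14) and TGFA (-0.44 ± 0.10), while the receptors EGFR, ERBB2 and ERBB3 were not called. EPGN had 4.7, 12.3 and 9.64 counts in GemR with thapsigargin and 10.0, 4.38 and 6.63 with vehicle, a few reads each, and 454, 395 and 413 in Par with thapsigargin and 83.2, 83.1 and 81.9 with vehicle. AREG was not called without some single libraries (adjusted p up to 0.0783), and TGFA was not called with quantile normalization.

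RRAD had the highest difference of all named genes. It encodes a small GTPase of the RGK family, which inhibits voltage-gated calcium channels, and lies on chr16:66921679-66925644 (GRCh38, GENCODE 29, minus strand). It had 323, 301 and 302 normalized counts in GemR with thapsigargin and 5.57, 4.38 and 2.84 with vehicle, against 7.55, 9.71 and 6.24 in Par with thapsigargin and 4.06, 8.91 and 3.9 with vehicle. The GemR libraries with the drug stood apart from the other 9, all of which were under 10. RRAD rose 60.3-fold in GemR and was not called in Par (0.48 ± 0.30, adjusted p = 0.22), and the difference was 5.44 ± 0.43 (adjusted p = 3.5e-08). Its relative GEM rose in both lines, more in GemR (4.33 ± 0.19 and 2.81 ± 0.19, difference 1.52 ± 0.27). SGK1, a kinase that regulates ion channels (chr6:134169246-134318112, minus strand), showed another pattern. It had 737, 677 and 709 counts in GemR with thapsigargin and 94.6, 65.7 and 74.8 with vehicle, against 1196, 1007 and 939 in Par with thapsigargin and 908, 1015 and 806 with vehicle. GemR with vehicle was the low group, GemR with the drug came up to just under Par, and the Par groups overlapped (2.97 ± 0.22, adjusted p = 1.57e-08). In the list of cyclic AMP genes and RGK GTPases, 4 of 17 were higher, the fourth being CITED2 (1.36 ± 0.21), and 1, the phosphodiesterase PDE7B (-1.58 ± 0.15), was lower. These counts stand beside 7.14% higher and 7.66% lower over all genes.

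**Figure D3:**
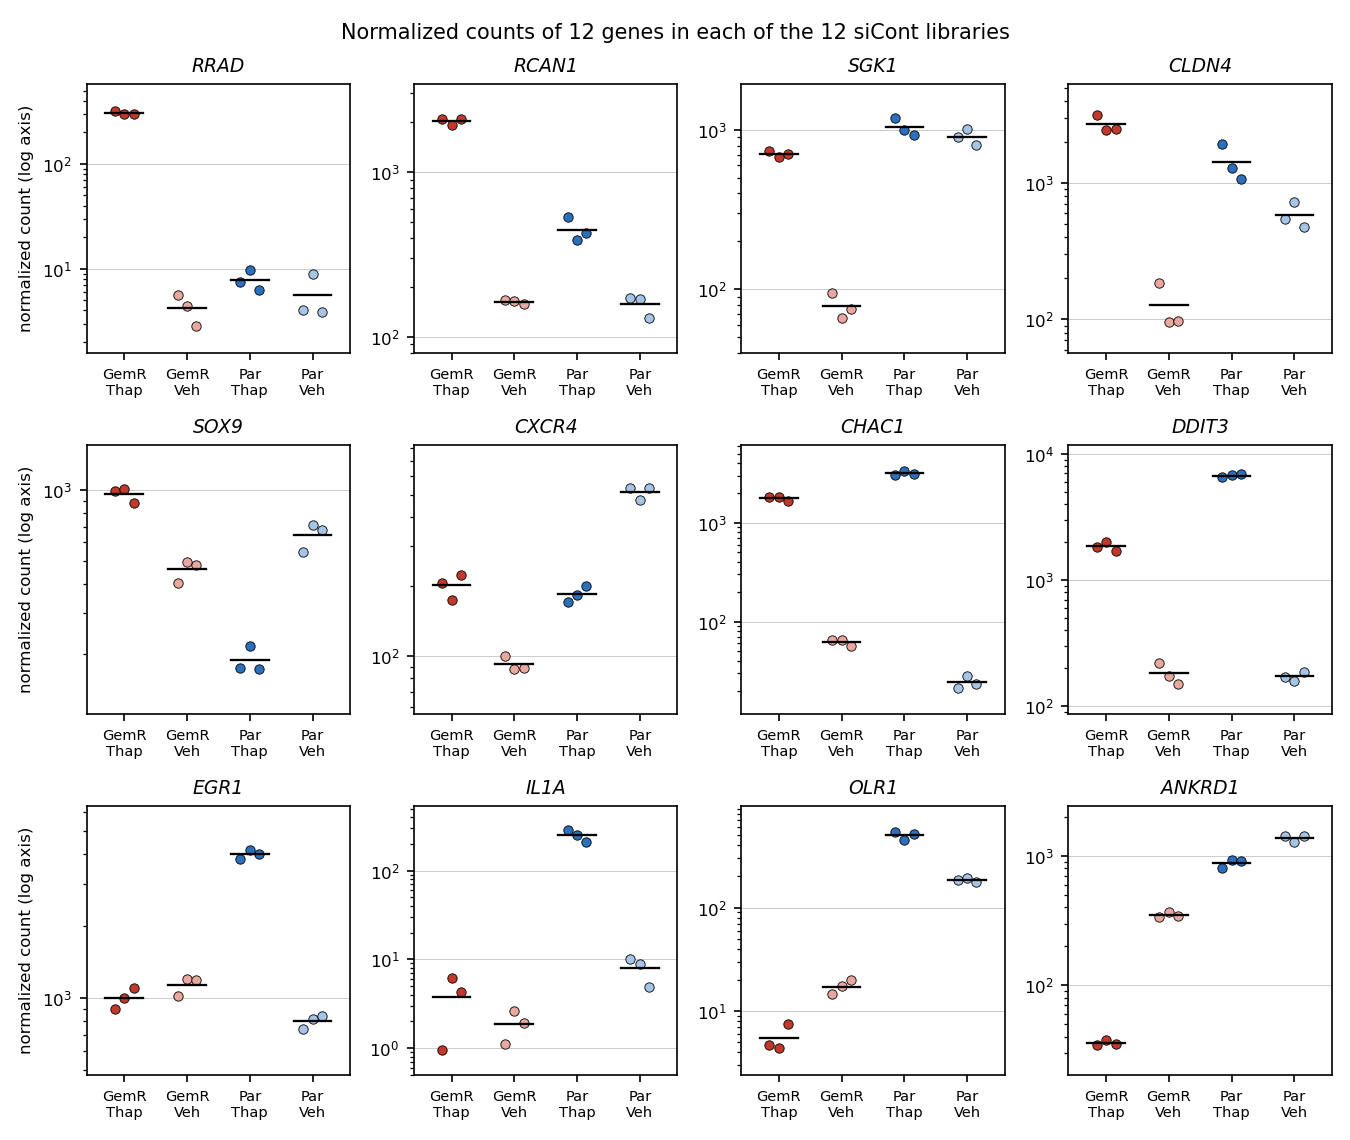
Normalized counts (log axis) of 12 genes in each library, with GemR thapsigargin, GemR vehicle, Par thapsigargin and Par vehicle from left to right; points are libraries and lines are group means. RRAD and RCAN1 are alike in the lines with vehicle and apart with thapsigargin, SGK1 and CLDN4 are low in GemR with vehicle, SOX9 and CXCR4 move in opposite directions in GemR and Par, and the genes from CHAC1 on respond less in GemR or fall there.

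Among cytokines and NF-kB genes 7 of 23 were higher in GemR, 2 (IL1A and NFKBIZ) were lower and 14 were not called (median -0.03). Beside this, 7.14% of all genes were higher and 7.66% lower. IL11, a cytokine of the IL-6 family, had 382, 334 and 312 counts in GemR with thapsigargin and 62.4, 44.7 and 26.5 with vehicle, against 19.8, 15.1 and 21.8 in Par with thapsigargin and 13.2, 16.3 and 16.6 with vehicle. It rose in GemR, was not called in Par, and the 2 Par groups overlapped (2.72 ± 0.35, adjusted p = 2.15e-05). The neutrophil chemokine CXCL1 had 1151, 929 and 991 counts in GemR with thapsigargin and 188, 109 and 121 with vehicle, and 619, 584 and 547 in Par with thapsigargin and 437, 655 and 481 with vehicle (2.73 ± 0.24, adjusted p = 1.55e-07). As for SGK1, the GemR vehicle libraries were the low ones. CXCL3 (1.77 ± 0.35) and the feedback inhibitors TNFAIP3 (1.08 ± 0.27) and NFKBIA (0.81 ± 0.16) were higher as well. IL1A, an alarm cytokine on chr2:112773915-112784590 (minus strand), had the lowest difference of all named genes. It had 0.94, 6.17 and 4.29 counts in GemR with thapsigargin and 1.11, 2.63 and 1.89 with vehicle, a few reads each, against 285, 253 and 212 in Par with thapsigargin and 10.2, 8.91 and 4.88 with vehicle. It rose 28.8-fold in Par and was not called in GemR (-4.27 ± 0.73, adjusted p = 0.000396), where so few reads could not show a modest change. The stretch upstream of IL11 (chr19:55370528-55370584, minus strand) is shown, as that of a gene called in GemR alone, with its AP-1 site in capitals.
IL11: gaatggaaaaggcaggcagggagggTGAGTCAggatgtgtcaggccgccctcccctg

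Of 26 epithelial genes tested, 10 had a higher response in GemR, 3 a lower one and 13 were not called, with a median difference of 0.50. Among all genes tested 7.14% were higher and 7.66% lower. CLDN4, a claudin of tight junctions, had 3169, 2432 and 2480 counts in GemR with thapsigargin and 186, 96.3 and 97.5 with vehicle, against 1928, 1280 and 1071 in Par with thapsigargin and 549, 730 and 474 with vehicle. The GemR libraries were the lowest of all in vehicle and the highest with the drug (3.20 ± 0.34, adjusted p = 1.93e-06). GemR vehicle replicate 1 was the highest of its group, and without it the call held. LYPD3, a surface protein of stratified epithelia, was alike in vehicle (18.9, 13.1 and 16.1 in GemR and 14.2, 17.8 and 16.6 in Par) and apart with the drug (209, 176 and 174 in GemR and 30.2, 31.3 and 20.8 in Par, difference 2.76 ± 0.27). CLDN3 (1.86 ± 0.23), the epithelial factor ELF3 (1.27 ± 0.18) and E-cadherin CDH1 (0.95 ± 0.20) rose in both lines, more in GemR. CDH1 had 463, 386 and 444 counts in GemR with thapsigargin and 81.3, 81.4 and 89.0 with vehicle, against 641, 476 and 483 in Par with thapsigargin and 172, 263 and 179 with vehicle. The GemR libraries lay below those of Par in both arms, and the gap was narrower with the drug. There the levels of the lines were not called apart (-0.30 ± 0.14, limma, adjusted p = 0.0863). CLDN1 was the exception with the largest value: it fell in GemR (-0.37 ± 0.06) and rose in Par (0.88 ± 0.06), a difference of -1.25 ± 0.09 (adjusted p = 1.01e-08). A stretch upstream of the CLDN4 start (chr7:73830746-73830866, plus strand) held 2 AP-1 sites, in capitals.
CLDN4: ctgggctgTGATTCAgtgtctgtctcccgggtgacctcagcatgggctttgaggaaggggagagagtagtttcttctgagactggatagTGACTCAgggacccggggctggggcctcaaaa

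Of 14 SOX and pancreatic lineage factors 5 were higher and 1, the Notch target HES1 (-0.89 ± 0.15), was lower, against 7.14% and 7.66% over all genes. SOX9, a factor of pancreatic duct and progenitor cells on chr17:72121020-72126420 (plus strand), had 993, 1016 and 888 counts in GemR with thapsigargin and 405, 494 and 482 with vehicle. In Par it had 176, 217 and 174 with thapsigargin and 548, 711 and 676 with vehicle. It rose in GemR (1.07 ± 0.13) and fell in Par (-1.77 ± 0.13), so that the order of the lines was turned round by the drug (2.84 ± 0.18, adjusted p = 2.87e-09). SOX4 and SOX2, factors of progenitor states, fell in Par (-1.61 ± 0.13 and -2.32 ± 0.26), and their differences were 1.34 ± 0.18 and 1.54 ± 0.37. SOX2 fell in GemR too, by less, and SOX4 was not called there (-0.26 ± 0.13, adjusted p = 0.119). GATA6, a factor of the classical pancreatic cancer subtype, rose to 336, 324 and 324 counts in GemR with thapsigargin, against 80.2, 82.3 and 118 in GemR with vehicle, and had 498, 490 and 496 in Par with thapsigargin and 371, 374 and 411 with vehicle (1.46 ± 0.16). Its level in GemR stayed under every Par library in both arms.

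Genes of the YAP-TEAD pathway, which reads cell shape and tension, were lower in GemR for 7 of 24 and higher for 2, the tissue factor gene F3 and NT5E (median -0.25). All genes tested gave 7.66% lower and 7.14% higher. The lower count of the list was 13 without GemR vehicle replicate 1 and 12 with the length term. Over all 13096 genes the lower counts of those fits were 1489 and 1929. ANKRD1 had 34.8, 37.9 and 35.4 counts in GemR with thapsigargin and 336, 368 and 343 with vehicle, against 801, 933 and 920 in Par with thapsigargin and 1431, 1283 and 1417 with vehicle. The 4 groups did not overlap, and the GemR libraries with the drug were the lowest (-2.60 ± 0.12, adjusted p = 8.4e-11). CTGF, a matricellular growth factor, had 1096, 1268 and 1350 counts in GemR with thapsigargin and 1097, 1258 and 1339 with vehicle, nearly the same values, against 5618, 5576 and 5498 in Par with thapsigargin and 1091, 1723 and 1423 with vehicle (-1.99 ± 0.20, adjusted p = 9.48e-07). The other best known target, CYR61, was not called (-0.10 ± 0.18, adjusted p = 0.791). The RhoGAP DLC1 (-1.68 ± 0.14) and the LATS kinase regulators AMOTL2 (-1.28 ± 0.15) and AJUBA (-1.26 ± 0.10) fell in GemR and rose in Par. Mesenchymal genes showed no common direction, with 2 of 17 higher and 3 lower. SNAI2, a repressor of E-cadherin, fell in GemR and rose in Par (-1.05 ± 0.12). Without GemR vehicle replicate 1, 4 mesenchymal genes were higher.

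**Figure D4:**
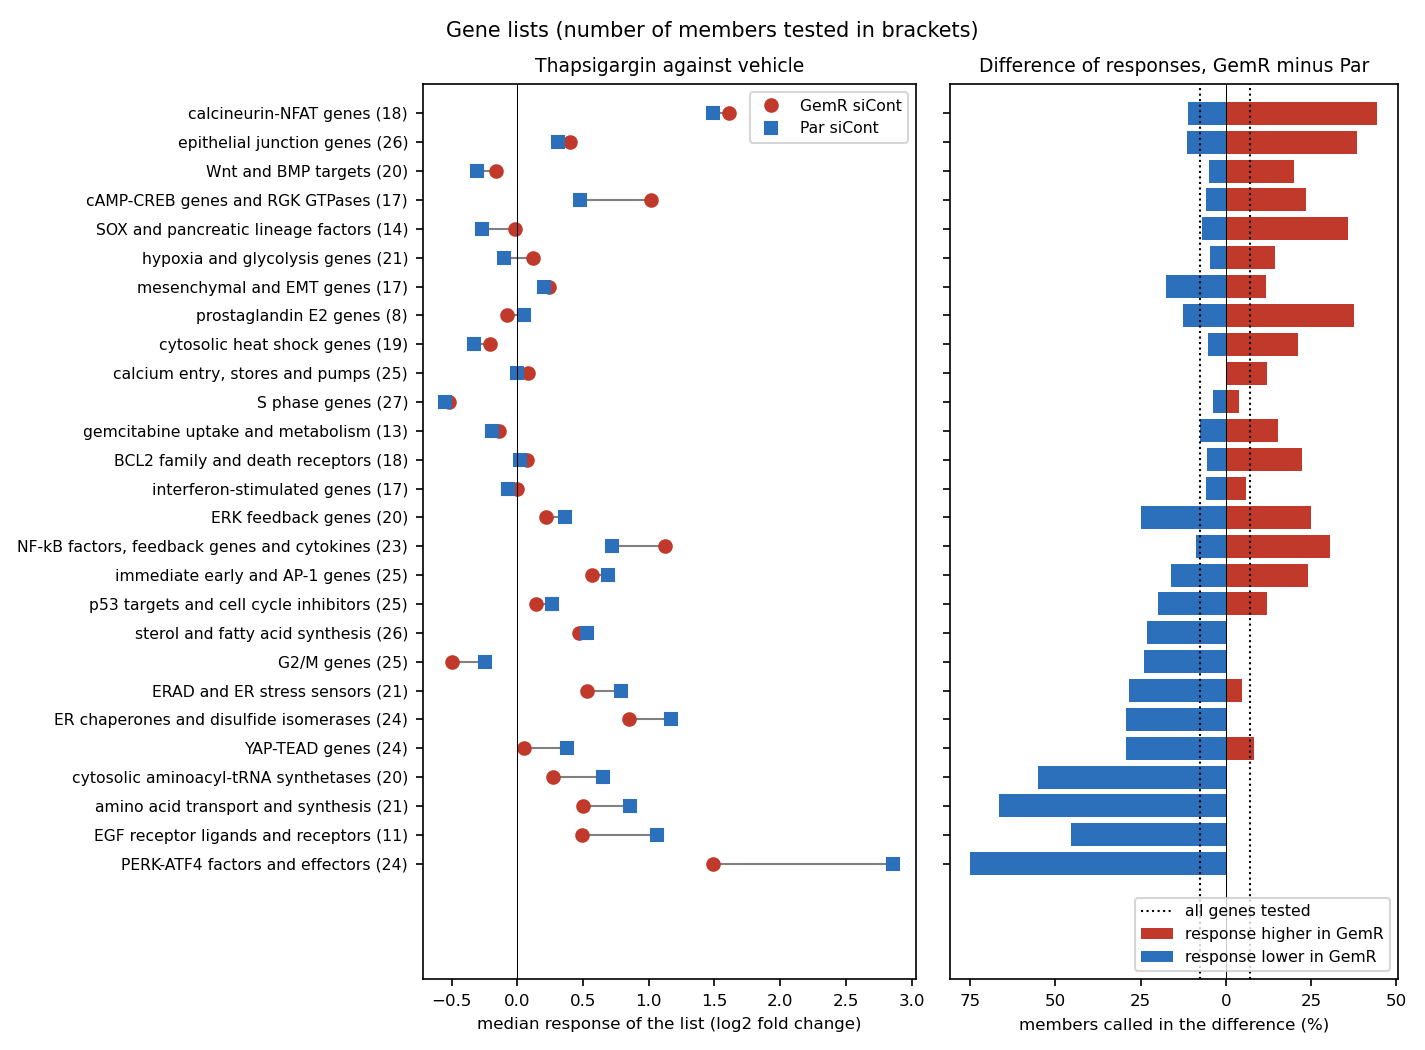
Left, median log2 fold change with thapsigargin against vehicle in GemR and in Par for each gene list shown. Lists with fewer than 8 tested members and the carcinoma markers are left out. Right, percentage of tested members with a higher or lower response in GemR. Dotted lines mark the shares over all genes tested (7.14% higher and 7.66% lower). The PERK-ATF4 list has the widest gap, with medians of 1.49 in GemR and 2.86 in Par, and the calcineurin-NFAT list has the largest share of higher members, 8 of 18.

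Direction as well as size differed for 186 genes, 6.77% of the 2748 called in both responses and 1.42% of all genes tested. Of these, 82 rose in GemR and fell in Par and 104 fell in GemR and rose in Par, and 7 did so by at least 2-fold in both. CXCR4, the receptor of the chemokine CXCL12, had 208, 174 and 225 counts in GemR with thapsigargin and 100, 87.6 and 89.0 with vehicle, against 171, 183 and 200 in Par with thapsigargin and 532, 476 and 533 with vehicle. The vehicle libraries lay wide apart and the thapsigargin libraries of the lines overlapped (2.59 ± 0.16, adjusted p = 2.87e-09). The 5 largest of the first kind were SOX9, CXCR4, PRRG4, the ciliary receptor GPR161 and the glycosyltransferase B3GNT5. The responses of these 5 lay between 1.07 and 1.63 in GemR and between -1.77 and -0.45 in Par. B3GNT5 had 3069, 2713 and 3039 counts in GemR with thapsigargin and 1173, 1286 and 1275 with vehicle, and 928, 896 and 869 in Par with thapsigargin and 1212, 1465 and 1205 with vehicle. The vehicle libraries overlapped, so for this gene the lines were apart under the drug alone (1.76 ± 0.14).

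Of the second kind, OLR1, a receptor of oxidised lipoprotein, had 4.7, 4.4 and 7.5 counts in GemR with thapsigargin and 14.5, 17.5 and 19.9 with vehicle, low in both, against 531, 451 and 517 in Par with thapsigargin and 186, 191 and 178 with vehicle (-2.93 ± 0.31, adjusted p = 1.77e-06). MAP3K14, the kinase NIK of the non-canonical NF-kB pathway, had 261, 289 and 236 counts in GemR with thapsigargin and 561, 708 and 680 with vehicle, against 837, 841 and 855 in Par with thapsigargin and 446, 551 and 567 with vehicle (-2.01 ± 0.14). The groups of each line did not overlap. TUFT1 (-2.10 ± 0.14), the formin DAAM1 (-2.00 ± 0.13) and the cytokine receptor IL7R (-1.86 ± 0.25) completed the 5. TUFT1 was higher in GemR with vehicle and lower with thapsigargin: 522, 546 and 596 counts in GemR with thapsigargin and 853, 1046 and 1117 with vehicle, against 1153, 1065 and 997 in Par with thapsigargin and 422, 468 and 454 with vehicle.

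**Figure D5:**
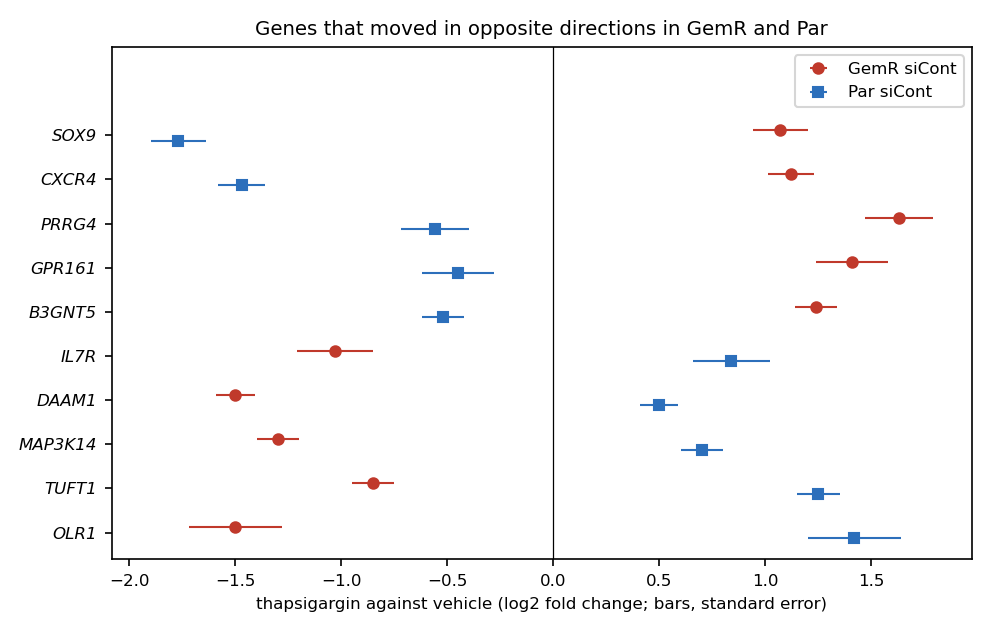
Log2 fold change with thapsigargin against vehicle (standard error as bars) in GemR (red circles) and in Par (blue squares) for the 10 genes with the largest difference among the 186 that moved in opposite directions. SOX9 and OLR1 are the extremes, with differences of 2.84 and -2.93.

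Some of the widest differences fell outside the lists. NOV, a matricellular protein of the CTGF family, had 2287, 2038 and 2138 counts in GemR with thapsigargin and 151, 135 and 161 with vehicle, against 420, 316 and 321 in Par with thapsigargin and 146, 187 and 138 with vehicle (2.68 ± 0.19, adjusted p = 1.09e-08). Its vehicle libraries overlapped and its drug libraries did not. WNT9A, a Wnt ligand (2.54 ± 0.33), rose in both lines, and TMCC3 (3.07 ± 0.44), an ER membrane protein, and RGCC (2.71 ± 0.41), a cell cycle regulator, rose in GemR and were not called in Par. The protocadherin PCDH19 (2.51 ± 0.76) had few reads, and its call was lost in some fits without 1 library (adjusted p up to 0.0905). TSC22D3, the glucocorticoid-induced leucine zipper GILZ, had 623, 643 and 585 counts in GemR with thapsigargin and 199, 202 and 180 with vehicle, against 2363, 2313 and 2219 in Par with thapsigargin and 160, 166 and 174 with vehicle (-2.11 ± 0.13, adjusted p = 1.83e-09). It rose in both lines, 3.17-fold in GemR and 13.7-fold in Par. FSIP1 (-2.39 ± 0.51) rose in Par and was not called in GemR, and PADI1 (-2.34 ± 0.39), which converts arginine to citrulline in proteins, fell in GemR and was not called in Par.

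Among cell cycle genes the S phase list had fewer calls, and the G2/M and p53 lists more, than the 14.8% over all genes. Of 27 S phase genes 25 fell in GemR and 23 in Par, and in the difference 1 was higher and 1 lower: FAM111B (0.77 ± 0.17) and the replication licensing factor CDC6 (-0.94 ± 0.07). CDC6 rose in both lines, to 3310, 3551 and 3276 counts in GemR with thapsigargin against 2543, 2544 and 2632 with vehicle, and to 6527, 6347 and 6368 in Par with thapsigargin against 2554, 2558 and 2541 with vehicle. Its vehicle libraries overlapped, and the lines did not overlap with the drug. G2/M genes fell in 22 of 25 in GemR and in 14 in Par, and 6 had a lower response in GemR and none a higher one (median -0.18; 11 lower with the length term), led by the centromeric histone CENPA (-0.82 ± 0.14) and the spindle protein TPX2 (-0.61 ± 0.09). Of 25 p53 targets and cell cycle inhibitors 3 were higher, 5 without GemR vehicle replicate 1, and 5 were lower, 9 with the length term. CDKN1C, the inhibitor p57, rose in GemR and was not called in Par (2.62 ± 0.43), while CDKN2B, the inhibitor p15 (-1.23 ± 0.14), and the stress sensors GADD45A (-1.17 ± 0.14) and GADD45B (-0.98 ± 0.16) rose less in GemR. For GADD45B GemR was higher with vehicle (0.84 ± 0.12), and the lines were not called apart with thapsigargin (-0.13 ± 0.12, limma, adjusted p = 0.353). CDKN1A, the inhibitor p21, was not called (0.55 ± 0.19, adjusted p = 0.0622).

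In the BCL2 family and death receptors 4 of 18 were higher (7 with the length term) and 1 lower, against 7.14% and 7.66% over all genes. BCL2L1, whose main product BCL-xL protects from cell death, had 2337, 2464 and 2289 counts in GemR with thapsigargin and 4862, 4284 and 4038 with vehicle, against 3635, 3950 and 3790 in Par with thapsigargin and 3816, 4130 and 4158 with vehicle (-0.80 ± 0.11, adjusted p = 4.02e-05). It fell in GemR, and the 2 Par groups overlapped. BCL2L11, which encodes the death-promoting BIM, rose in GemR and was not called in Par (0.79 ± 0.15, adjusted p = 0.0011). The other higher members were TNFRSF10D (1.07 ± 0.12), TNFRSF1B (1.17 ± 0.35) and BOK (0.58 ± 0.15), which fell in Par and were not called in GemR. Of 19 heat shock genes 4 had a higher response in GemR, all of which fell in Par, and 1, the mitochondrial chaperone HSPA9, was lower. HSPA1A had 720, 764 and 747 counts in GemR with thapsigargin and 1327, 1292 and 1125 with vehicle, against 206, 244 and 235 in Par with thapsigargin and 1289, 1088 and 1219 with vehicle. The vehicle libraries overlapped, and Par with the drug was lowest (1.64 ± 0.12, adjusted p = 1.41e-08). HSPA1B is nearly identical in sequence, so reads of the pair may be split between them. Sterol and fatty acid genes rose for 19 of 26 in GemR and 20 in Par, with 6 responses lower in GemR and none higher (median -0.18; 10 lower and 1 higher with the length term), among them HMGCS1 (-0.64 ± 0.12), MSMO1 (-0.70 ± 0.13) and IDI1 (-0.58 ± 0.15). With thapsigargin the levels of the lines were not called apart (limma, adjusted p = 0.156, 0.378 and 0.183, in this order). With vehicle GemR was higher (0.50 ± 0.08, 0.80 ± 0.09 and 0.40 ± 0.11). STARD4 (-0.63 ± 0.16) was lower in GemR with thapsigargin (-0.47 ± 0.12) and not called with vehicle (0.16 ± 0.12).

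Shares of higher and lower members in the other lists are to be read against 7.14% and 7.66% over all genes. The length term gave 1917 higher and 1929 lower over all 13096 genes. The fit without GemR vehicle replicate 1 gave 1454 and 1489. Wnt and BMP targets had 4 of 20 higher (9 with the length term) and 1, ID1, lower, with BMP2 (1.48 ± 0.33) and the R-spondin receptor LGR4 (0.82 ± 0.18) higher. ID1 was not called without GemR thapsigargin replicate 3, Par thapsigargin replicate 3 or Par vehicle replicate 3, or with no trend. ID2, an inhibitor of helix-loop-helix factors, was higher (1.99 ± 0.54), and without Par thapsigargin replicate 1 it was not called (adjusted p = 0.0517). Hypoxia and glycolysis genes had 3 of 21 higher and 1, ADM, lower, and 9 higher without GemR vehicle replicate 1, led by the oxygen sensor EGLN3 (1.46 ± 0.19). Of 13 genes of gemcitabine uptake and metabolism 2 were higher, the efflux pump ABCC5 (0.48 ± 0.13) and the nucleoside importer SLC29A1 (0.47 ± 0.12), and 1, the nucleotidase NT5C2 (-0.56 ± 0.10), was lower. In the list of prostaglandin E2 genes 3 of 8 were higher, including the receptor PTGER4 (1.11 ± 0.15) and the synthase PTGES (0.61 ± 0.15), and the 1 lower member was OLR1, which is no prostaglandin gene. Interferon-stimulated genes had 1 of 17 higher, IRF9, and 1 lower, IFIT2. IRF9 was not called with edgeR, quantile normalization, median centring, no filter or the 12 libraries alone, nor in 7 of the 12 fits without 1 library. Of the cell type markers, carcinoma markers had 1 of 8 higher (CDH1), fibroblast markers none of 4, and immune and endothelial markers 1 of 3, PECAM1.

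GemR cells with an siRNA against STIM1 (siSTIM1) gave a further thapsigargin response, from 6 other libraries. For some of the leading genes it is given beside the response of GemR siCont and that of Par. RRAD had 3.45 ± 0.30 with siSTIM1, 5.91 ± 0.30 in GemR siCont and 0.48 ± 0.30 in Par. LYPD3 had 0.81 ± 0.19, 3.46 ± 0.19 and 0.71 ± 0.19 in the same order, and SOX9 had -0.20 ± 0.13, 1.07 ± 0.13 and -1.77 ± 0.13. For these 3 the value with siSTIM1 lay between those of the other responses, but the levels behind it differed. LYPD3 averaged 171 ± 34.3 counts with thapsigargin and 95.9 ± 10.9 with vehicle in GemR siSTIM1, against 186 ± 19.6 with thapsigargin and 16.1 ± 2.9 with vehicle in GemR siCont, so its vehicle level was the one that stood apart. RRAD averaged 82.7 ± 7.13 with thapsigargin and 6.88 ± 2.3 with vehicle in GemR siSTIM1, against 309 ± 12.6 with thapsigargin and 4.26 ± 1.37 with vehicle in GemR siCont. RCAN1 had 3.53 ± 0.12 with siSTIM1 and 3.64 ± 0.12 in GemR siCont, and CHAC1 had 4.41 ± 0.11 and 4.82 ± 0.11. The difference between those responses was not called (limma, -0.10 ± 0.17, adjusted p = 0.762, for RCAN1 and -0.41 ± 0.16, adjusted p = 0.157, for CHAC1). RCAN1 does not stand for its list. The same difference was called for NFATC1 (-1.45 ± 0.24, adjusted p = 0.00111), NR4A2 (-1.26 ± 0.25, adjusted p = 0.00491) and, upward, EGR2 (1.19 ± 0.30, adjusted p = 0.0255). For NFATC2 it was not called (-0.92 ± 0.27, adjusted p = 0.0592). DDIT3 had 4.32 ± 0.12 with siSTIM1, 3.35 ± 0.12 in GemR siCont and 5.29 ± 0.12 in Par. IL1A had 0.97 ± 0.51 with siSTIM1, 0.58 ± 0.51 in GemR siCont and 4.85 ± 0.51 in Par, and EPGN 0.28 ± 0.34, 0.28 ± 0.34 and 2.33 ± 0.34. The difference between the siSTIM1 and siCont responses of GemR was not called for IL1A or EPGN (limma, adjusted p = 0.782 and 0.999). It was called for RRAD (-2.47 ± 0.43, adjusted p = 0.00172) and LYPD3 (-2.65 ± 0.27, adjusted p = 7.11e-06). SOX9 (-1.27 ± 0.18, adjusted p = 0.000249) and DDIT3 (0.97 ± 0.16, adjusted p = 0.00148) were called as well.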

How the data were processed

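Messenger RNA of 18 libraries was sequenced, 12 of which form the 4 siCont groups compared. Per the submitters' processing notes, reads were aligned to hg38 with STAR 2.6.0c, counted with HTSeq 0.11.1 and processed with DESeq2; the annotation is not given in the sources used here. Per the labels' protocols, 500 ng RNA per library went into the TruSeq RNA Library Prep Kit v2, a chemistry that does not mark strand, so overlapping antisense genes cannot be told apart. The authors deposited normalized counts, a signal equal to reads divided by 1 size factor per library: all positive values were whole multiples of 1 read (100% within 0.01). The table held 26485 genes, 5873 at 0 in all libraries, and 0 columns were left unused.

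Here log2(normalized count + 1) of 13096 genes, those averaging 10 or more, was fitted with limma 3.58.1 (trend; 1 mean per group over 18 libraries, 12 residual degrees of freedom; R 4.3.3). The two-sided test of (GemR thapsigargin minus GemR vehicle) minus (Par thapsigargin minus Par vehicle) was adjusted by Benjamini and Hochberg over all 13096 genes, and called at an adjusted p under 0.05. The pseudocount shrinks fold changes of low genes. Named genes were STIM1, RRM1, the 15 highest and 15 lowest called differences and the 10 largest opposite responses (all with 50 or more counts on average in some group), and from each of the 30 lists the 5 largest called members (2 where none was called). Further list members are examples chosen after their values were seen, and some genes are not reported here. The members and lists were chosen with earlier results of these data known. Alternatives were other pseudocounts, filters, scalings and limma settings, a replicate block, each library left out, a transcript length term per library (lengths from GENCODE 29), and, on recovered reads, edgeR 4.0.16 and DESeq2 1.42.0. The value of the length term for a library was the slope on length of its deviations from its group mean. Promoters came from RefSeq (GRCh38.p14).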

Additional observations from a re-analysis of the deposited data

Results flagged for a closer look

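The responses of the lines differed for 935 genes in the higher and 1003 genes in the lower direction, by limma's test of the difference itself. For 186 genes thapsigargin changed the level in opposite directions in GemR and Par, each response passing its own test. Those with the largest differences, where the level rose in GemR and fell in Par, were SOX9 (2.84), CXCR4 (2.59), PRRG4 (2.19), GPR161 (1.86) and B3GNT5 (1.76). Where it fell in GemR and rose in Par, they were OLR1 (-2.93), TUFT1 (-2.10), MAP3K14 (-2.01), DAAM1 (-2.00) and IL7R (-1.86), all on the log2 scale. All 10 differences passed limma's test, which the choice by opposite responses favours. For OLR1 the opposite response rests on low counts in GemR.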

How the results depend on the processing

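The count of called differences was 1938. Leaving out 1 library gave 1529 (without Par thapsigargin replicate 1) to 2943 (without GemR vehicle replicate 1), the length term gave 3846, and a 2-fold minimum 438. The length term alters the estimated spread and not the differences, so its larger counts are no separate check of them. Opposite responses numbered 186, with 408 under the length term, 7 with the 2-fold minimum and 131 to 245 without 1 library. With the 2-fold minimum 771 genes were called in GemR and 833 in Par. The other limma settings, edgeR (1744; 908 higher and 836 lower) and DESeq2 (1935; 934 and 1001) kept the count within 1.5 times, and 1675 and 1790 of the 1938 genes were shared. In the replicate block fit 2010 genes were called, 1890 of them shared. Same-numbered libraries deviated together with r between -0.086 and 0.225 (median 0.005), so the numbers were not taken as pairs. Of the 140 called among 144 named genes, 126 were called in each of the 12 fits without 1 library. Of the others, SEL1L (up to 0.0862), TNFRSF1B (0.0922), PLA2G4A (0.0998), PECAM1 (0.0839), SLC6A9 (0.07) and ID1 (0.0662) lost their call, as did DUSP8, NDRG1, HSD17B7 and IRF9. HSPA5 changed sign with quantile normalization (0.13); the cause was not tested. Without GemR vehicle replicate 1 the higher count was 4 in the S phase list, 6 in the BCL2 list and 3 among carcinoma markers, and the lower count 2 in the calcium list and 3 in the cyclic AMP list. Counts of 1 or 2 members in the NF-kB, S phase, Wnt, YAP-TEAD, interferon and immune lists moved by up to 1 member when other single libraries of GemR or Par were left out. For IL1A, EPGN, OLR1 and INHBE the few reads in GemR limit what a change there could show.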
